A study of Mus musculus with 72 samples.

Results

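The T cell receptor complex and its coreceptors were followed through 10 genes in the blood of irradiated mice: Cd3d, Cd3e, Cd3g and Cd247 of the CD3 and zeta chains, the coreceptor genes Cd4, Cd8a and Cd8b1, and the proximal signalling genes Lck, Zap70 and Lat. Members were chosen by name in the gene column of the arrays and each is represented by its brightest detected probe. All 10 were detected and were among the 10863 genes tested. Male C57BL/6 mice aged 8 to 10 weeks received whole-body irradiation with 0.25 Gy or 1 Gy neutrons, from a beam that imitates the spectrum of an improvised nuclear device and carries some gamma rays, or with 1 Gy or 4 Gy x-rays. Sham-irradiated controls, of the same strain, sex and age, were placed in the holders of the neutron wheel with the beam off. The paper describes no sham treatment on the x-ray machine. Whole blood, drawn by cardiac puncture and depleted of globin mRNA, was hybridised to 72 one-colour arrays, 1 mouse per array, in 13 groups of 5 or 6. The groups of day 1 held 5 controls, 6 mice for each neutron dose, 6 for 1 Gy of x-rays and 5 for 4 Gy of x-rays. Those of day 7 held 6 controls, 5 mice for the lower and 6 for the higher dose of either radiation. Those of day 3 held 5 controls, 6 mice for 0.25 Gy neutrons and 5 for 1 Gy of x-rays.

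The T cell receptor recognises peptide held by major histocompatibility molecules through its variable chains, and it signals through the CD3 and zeta chains, whose cytoplasmic tails carry tyrosine motifs known as ITAMs. CD4 and CD8, which bind class II and class I molecules, bring the kinase Lck to the receptor. Lck phosphorylates the ITAMs, Zap70 docks on them, and Zap70 in turn phosphorylates the scaffold Lat, from which the downstream pathway is built. CD8 occurs in blood mainly as a heterodimer of the Cd8a and Cd8b1 products, and blood lymphocytes are among the most radiosensitive cells of the body.

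The probes that lie in a signalling motif are shown because they tie the measured transcript to the part of the receptor that Lck acts on. The capitals mark tyrosine codons that are followed 3 codons later by a leucine or isoleucine codon, the spacing of an ITAM. The sequences were read from the array files, which give no genome position for either of them.
Cd3d: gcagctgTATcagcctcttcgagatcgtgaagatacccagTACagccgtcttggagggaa
Cd247, second probe: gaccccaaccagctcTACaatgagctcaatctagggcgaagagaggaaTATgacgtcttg

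The other probes used for the members were placed by the array files on mouse build mm9, at chr9:44806828-44806887 for Cd3e, chr9:44777868-44777927 for Cd3g, chr6:71328911-71328970 for Cd8a, chr6:71287231-71287290 for Cd8b1, chr6:124814711-124814770 for Cd4, chr4:129225614-129225673 for Lck, chr1:36839542-36839601 for Zap70, chr7:133507719-133507778 for Lat and chr1:167800324-167800383 for Cd247. Cd3e and Cd3g lie close together on chromosome 9, and Cd8a and Cd8b1 close together on chromosome 6.

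RefSeq promoter windows, 250 bases before to 50 after the transcript start on build GRCm38.p6, were available for 8 members, with 11 windows in all. They are shown as a description of the members' sequences, and a part of any motif in the members' levels was not tested. The 8-letter ETS-type motif CAGGAAGT, searched on both strands, occurred in 4 of the 11 windows, which belong to 3 members, and in 1093 of 32851 windows overall (3.33%). The 125 bases before the start are given below in the direction of the gene, with the motif or its reverse complement ACTTCCTG in capitals. Of the 2 matches in the Cd247 window, 1 lies outside the bases shown. The motif began 58 bases before the start in Cd247, 18 in Cd3e, and 115 and 11 in the windows of Lck. The windows of Cd3d, Cd3g, Cd8a, Lat and Zap70 held no match. A match of letters describes the sequence and shows no binding.
Cd247, chr1:165788556-165788680, plus strand: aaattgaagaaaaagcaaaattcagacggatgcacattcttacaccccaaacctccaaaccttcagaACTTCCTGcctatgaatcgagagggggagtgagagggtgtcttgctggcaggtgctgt
Cd3e, chr9:45009612-45009736, minus strand: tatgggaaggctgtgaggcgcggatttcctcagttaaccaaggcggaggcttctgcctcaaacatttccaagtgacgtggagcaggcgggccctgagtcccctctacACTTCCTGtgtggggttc
Lck, chr4:129558373-129558497, minus strand: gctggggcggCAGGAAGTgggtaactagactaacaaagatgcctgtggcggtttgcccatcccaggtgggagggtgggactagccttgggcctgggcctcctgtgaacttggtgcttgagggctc
Lck, chr4:129573642-129573766, minus strand: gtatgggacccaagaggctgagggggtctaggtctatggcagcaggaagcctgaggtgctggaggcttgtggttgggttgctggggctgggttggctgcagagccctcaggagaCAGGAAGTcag

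Levels are log2 intensities with the median of the detected probes of each array, here called the array median, set to 0. Detected were 19808 of 39429 probes. A difference of 1 is a doubling. A gene was called differentially expressed in limma, over all 10863 genes, where its unadjusted p was under 0.001 and its false discovery rate (FDR) under 5%. Differences are given ± SE. Whether the mice of compared groups overlapped was looked at for the members only. The share of all genes without overlap was not counted, so a lack of overlap describes the members' values and is no further test. Between 40.2% and 67.3% of the spots of an array were well above background, with the lowest values after 1 Gy neutrons on day 7 (40.2% to 50.3%, against 54.3% to 63.9% in the controls of that day). Apart from Cd247, the spots of every member were well above background on every array, and none was saturated. Of the 72 columns of the deposited normalised table, 60 followed another array's scanner values more closely than their own and 21 followed an array of another group. The scanner files were therefore used throughout, under the sample each was deposited with, and whether those assignments are themselves correct was not tested. Comparisons with controls of one day share those controls. Fewer T cells in the blood and less RNA per T cell cannot be told apart in these samples. The paper reports total blood counts in the normal range and no significant change in the make-up of the white cells. It prints no count of T cells.

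**Figure D1:**
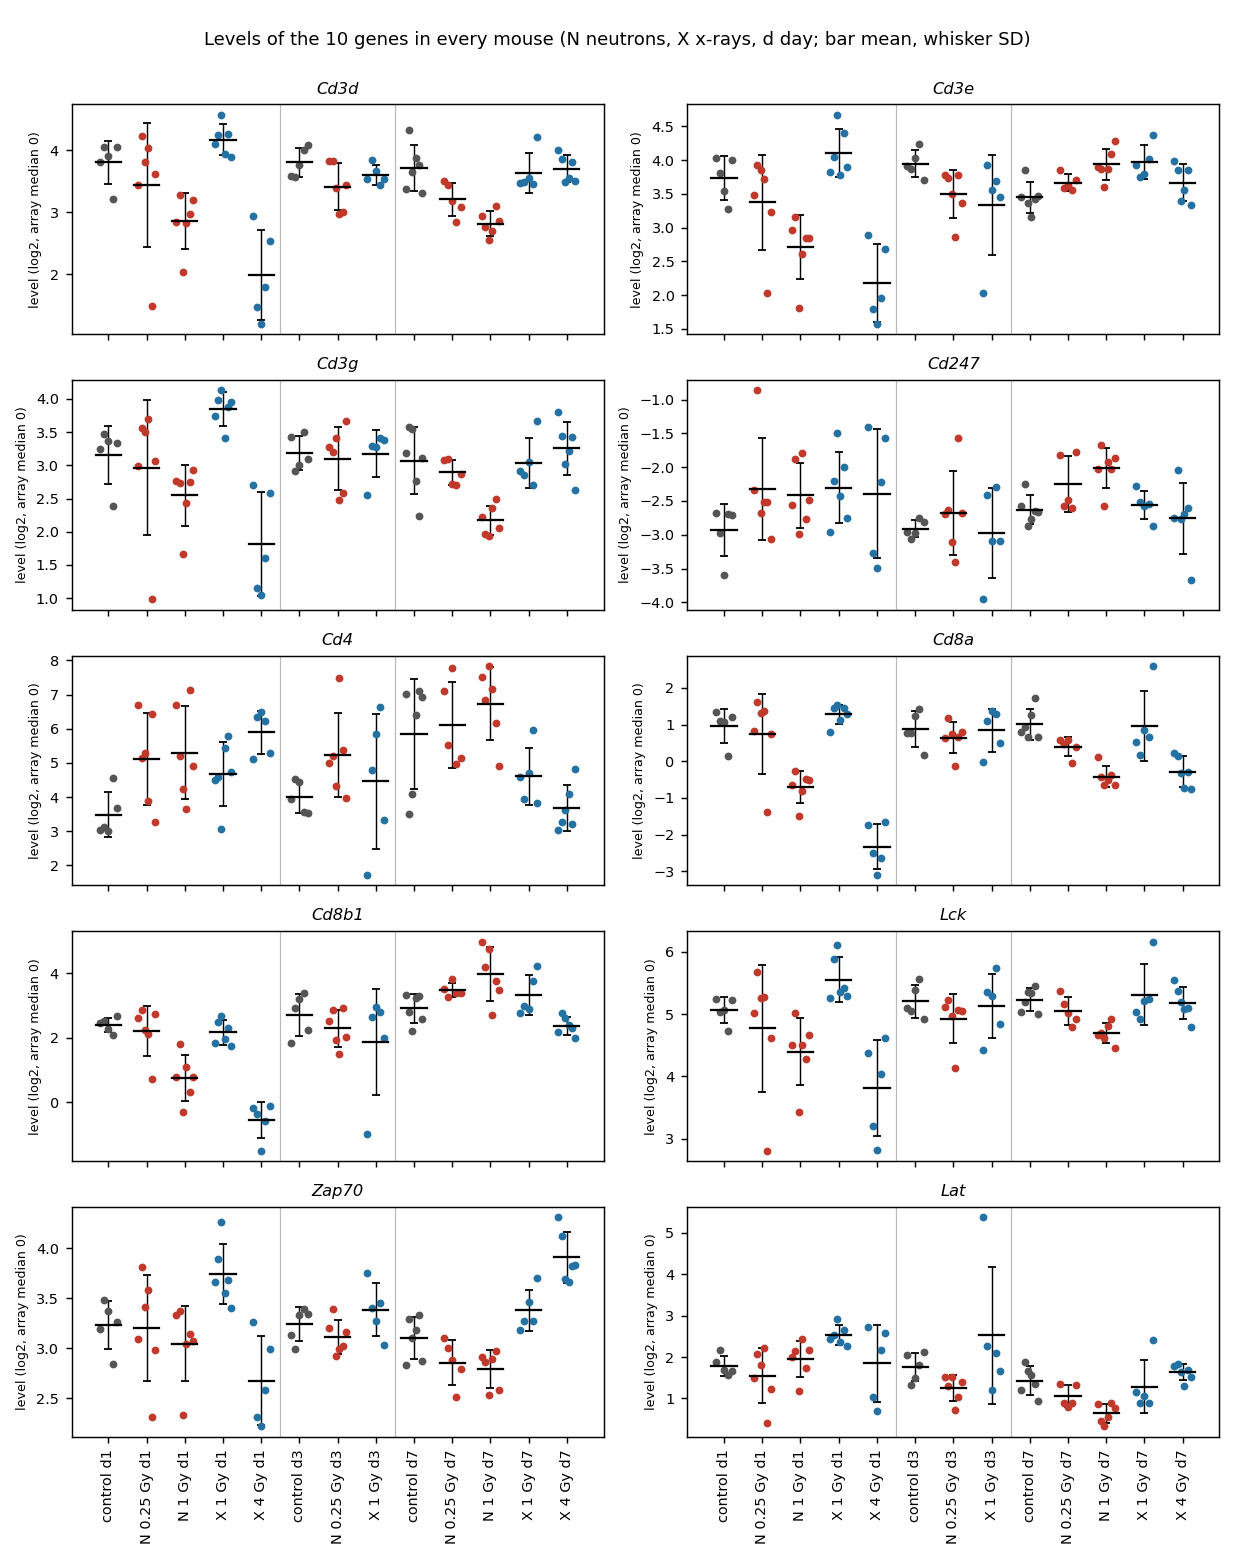
Level of each of the 10 members in every mouse (vertical axes, log2 intensity with the array median at 0), by group and day on the horizontal axes, with bars at the mean and whiskers of 1 SD. The 4 Gy x-ray mice of day 1 sit lowest for Cd8a and have the lowest mean for Cd8b1, where single mice of other groups lie among them. In the Cd4 panel they lie above all 5 controls of that day.

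Among the comparisons with controls, with the array medians aligned, most members were called 1 day after 4 Gy x-rays. Of the 10 members, 4 fell and 1 rose, while 35.1% of all genes were called in this comparison. The members that fell were both CD8 chains and the CD3 chains Cd3d and Cd3e, and the member that rose was Cd4. The median difference of the members was -1.30, against 0.0045 over all genes.

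Cd8a, the chain shared by all CD8 molecules, had levels of 1.34, 1.09, 1.06, 0.15 and 1.20 in the controls and of -1.74, -2.51, -3.10, -2.64 and -1.65 after 4 Gy x-rays. Every irradiated mouse was below every control. The difference was -3.30 ± 0.32 (limma FDR 1.59e-05), which leaves 0.102 of the control level. It ran from -3.57 to -1.65 over 12 alternative settings, in all of which Cd8a was called, with -1.65 under normexp background correction. Cd8b1, the partner chain of the heterodimer, had levels of 2.45, 2.52, 2.26, 2.08 and 2.66 in the controls and of -0.20, -0.36, -1.51, -0.59 and -0.13 in the irradiated mice. The groups were again apart, with a difference of -2.95 ± 0.27 (limma FDR 1.09e-05) and 0.129 of the control level remaining.

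The CD3 chains, which carry the signal of every T cell receptor, fell by less. Cd3d levels were 3.81, 4.05, 3.91, 3.22 and 4.05 in the controls and 2.94, 1.48, 1.20, 1.80 and 2.54 after 4 Gy. All 5 irradiated mice were below all controls, and the difference was -1.82 ± 0.33 (limma FDR 0.000652). For Cd3e the controls were at 4.04, 3.80, 3.55, 3.27 and 4.01 and the irradiated mice at 2.89, 1.79, 1.57, 1.95 and 2.68, also without overlap (-1.56 ± 0.29, limma FDR 0.000704). Cd3g showed controls at 3.24, 3.47, 3.37, 2.39 and 3.33 and irradiated mice at 2.70, 1.15, 1.05, 1.60 and 2.58. Here the groups overlapped, because control replicate 4 was low, and the difference of -1.35 ± 0.36 missed the threshold for p (limma FDR 0.00647).

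Lck, the kinase that starts receptor signalling, was at 5.24, 5.04, 5.06, 4.73 and 5.23 in the controls and at 4.38, 3.20, 2.82, 4.04 and 4.62 after 4 Gy x-rays. The groups did not overlap, but the difference of -1.25 ± 0.33 was not called (limma FDR 0.00595). The difference was -0.56 ± 0.25 for Zap70 and 0.05 ± 0.38 for Lat, and neither passed the test.

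Cd4 moved in the other direction. Its probe read 3.04, 3.12, 3.00, 4.55 and 3.69 in the controls and 5.12, 6.33, 6.50, 6.22 and 5.30 in the irradiated mice. All irradiated mice were above all controls, a difference of 2.42 ± 0.37 (limma FDR 0.000224) or 5.35-fold. Within an array, the mean of the CD8 chains minus Cd4 ranged from -3.43 to -1.14 in the controls and from -8.81 to -6.09 after 4 Gy. The Cd4 probe did not follow the other T cell genes elsewhere in the series either, as described further on.

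No scan date held arrays of both of these groups, so that scan date and exposure cannot be told apart here. With scan date as a random block, which cannot separate them, 5 members were called. Markers of other cells moved as well: the mean level of the 7 tested hepatocyte genes, of 19 listed, ran from 1.07 to 7.97 (median 5.75) in the controls and from 8.78 to 9.58 after 4 Gy, with Cyp2e1 up by 5.41 ± 1.17 and Trf by 4.11 ± 0.92. The part of this RNA in the members' differences was not tested. Over all 72 arrays the hepatocyte mean correlated with Cd8b1 at r = -0.58, with Cd3e at r = -0.44 and with Cd4 at r = 0.05, a description of arrays that share groups.

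On day 1 after 1 Gy neutrons, 2 members fell, both of them CD8 chains, and none rose, with 17.5% of all genes called. The median difference of the members was -0.64, against 0.047 over all genes. Cd8a ran from -1.50 to -0.26 with a median of -0.57 in the 6 irradiated mice, below all controls. Its difference was -1.66 ± 0.27 (limma FDR 0.00103), and 0.316 of the control level remained. Cd8b1 ran from -0.32 to 1.79 with a median of 0.77, likewise below all controls, with a difference of -1.66 ± 0.32 (limma FDR 0.00217).

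Differences that were not called after 1 Gy neutrons on day 1 included Cd3e, at -1.03 ± 0.25 with no overlap between the groups, Cd3d at -0.94 ± 0.25, Lck at -0.67 ± 0.26, Cd3g at -0.61 ± 0.27 and Cd4 at 1.83 ± 0.59. Zap70 was at -0.18 ± 0.22 and Lat at 0.16 ± 0.23. One scan date held 4 neutron arrays and all 5 controls, and within it the difference was -1.77 for Cd8a, -1.56 for Cd8b1, -1.06 for Cd3d, -1.10 for Cd3e and 1.46 for Cd4. With scan date as a block, Cd8a was called and Cd8b1 was not (limma FDR 0.00367 and 0.0103). The hepatocyte mean ran from 1.43 to 8.91 in this group.

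After 1 Gy x-rays, the same physical dose as 1 Gy neutrons, a single member rose on day 1 and none fell, with 7.65% of all genes called. This was Lat, the scaffold that Zap70 phosphorylates. Its levels were 1.87, 2.18, 1.68, 1.57 and 1.67 in the controls and ran from 2.28 to 2.93 (median 2.48) in the 6 irradiated mice, all of them above the controls. The difference of 0.74 ± 0.17 (limma FDR 0.0119) lay close to the threshold: it was called in 4 of 12 alternative settings and in 2 of the 11 fits that left out a mouse. Lck was also higher in all 6 irradiated mice than in all controls, at 0.49 ± 0.19, but was not called. The CD8 chains gave 0.31 ± 0.22 for Cd8a and -0.23 ± 0.20 for Cd8b1, with 95% intervals from -0.20 to 0.81 and from -0.69 to 0.22. Scan date and exposure cannot be told apart in this comparison, because no date held arrays of both groups. Over all arrays Lat correlated with the mean of the platelet genes at r = 0.53 and with that of the CD3 chains at r = 0.30. Its r was 0.47 with the signalling partners and 0.53 with the receptor's region transcripts, lists described further on. The platelet mean ran from 4.23 to 5.12 (median 4.44) in the controls. After 1 Gy x-rays it ran from 4.43 to 6.09 (median 5.32). The part of platelets in the rise of Lat was not tested.

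At the later times after 1 Gy x-rays no member was called in limma or with the random variance test, on day 3 with 2% of all genes called and on day 7 with 4%. At an unadjusted p under 0.05 there were 0 members on day 3 and 1 on day 7, Cd3e with 0.52 ± 0.17, and 2458 and 2849 of the 10863 genes. On neither day did a scan date hold arrays of both groups. One day 3 mouse, replicate 1, stood apart: its Lat level was 5.38, against 2.27, 1.20, 2.11 and 1.66 in the others, while its Cd8b1 level was -0.99, against 2.63, 2.94, 2.78 and 2.00.

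After 0.25 Gy neutrons no member was called in limma or with the random variance test on any day. The share of all genes called was 0.00921% on day 1, 1.17% on day 3 and 0.0276% on day 7. At an unadjusted p under 0.05 there was 1 member on day 1, Cd4 (1.64 ± 0.58), and there were 3 on day 3, Cd3e (-0.45 ± 0.21), Cd4 (1.23 ± 0.52) and Lat (-0.52 ± 0.22). On day 7 the 3 were Cd3d (-0.51 ± 0.20), Cd8a (-0.61 ± 0.22) and Cd8b1 (0.57 ± 0.22). Among all 10863 genes there were 1841, 2729 and 2567 at that level on days 1, 3 and 7. Cd8a on day 7 was at 0.59, 0.47, 0.58, -0.06 and 0.39 after 0.25 Gy, and all 5 values were below the lowest control, at 0.65.

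**Figure D2:**
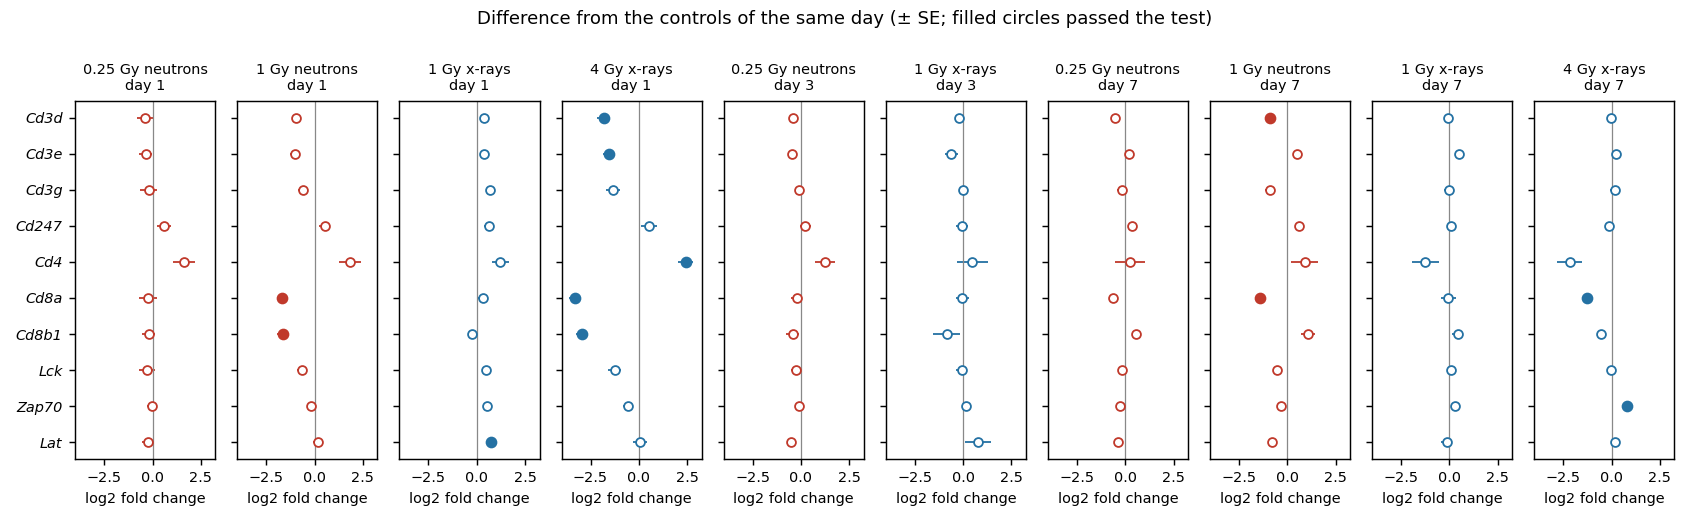
Difference from the controls of the same day (horizontal axes, log2 fold change, bars ± SE) for the 10 members (vertical axis), with a panel for each exposure and day and filled circles where the test was passed. Cd8a lies below 0 and is filled for the 4 Gy x-ray and 1 Gy neutron groups of both days, whereas Cd8b1 turns from -1.66 on day 1 to 1.07 on day 7 after 1 Gy neutrons.

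By day 7 after 1 Gy neutrons, 2 members were lower and none higher, with 38.4% of all genes called. The members that fell were Cd8a and Cd3d. Cd8a ran from -0.65 to 0.12 (median -0.48) in the irradiated mice and from 0.65 to 1.73 (median 0.87) in the controls. All irradiated mice were below all controls, at a difference of -1.43 ± 0.21 (limma FDR 8e-05). Cd3d ran from 2.55 to 3.11 (median 2.81) against 3.31 to 4.33 (median 3.71), also without overlap (-0.90 ± 0.19, limma FDR 0.00113).

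Lat and Lck were lower in all 6 neutron mice than in all 6 controls on day 7, at -0.79 ± 0.19 and -0.54 ± 0.15, and Cd3g was at -0.90 ± 0.23. None of these passed the threshold for p (limma FDR 0.00262, 0.00617 and 0.00408). Cd8b1 and Cd3e, by contrast, had differences of 1.07 ± 0.36 and 0.48 ± 0.16, above 0 and not called. Cd8b1 ran from 2.70 to 4.98 (median 3.98) after neutrons and from 2.22 to 3.33 (median 3.01) in the controls, with overlap.

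In the main processing, Cd8b1 parted from Cd8a, and Cd3e from Cd3d and Cd3g, on day 7 after 1 Gy neutrons. This was seen in a difference taken within each array. The median spot intensity of the neutron arrays was 9.52 to 16.8, against 32.2 to 50.5 in the controls. The part of this low signal in the parting was not tested. Cd8b1 minus Cd8a ran from 3.22 to 5.39 (median 4.40) after 1 Gy neutrons and from 1.55 to 2.53 (median 1.88) in the controls, with every neutron mouse above every control. After 0.25 Gy neutrons it ran from 2.80 to 3.43 (median 3.01), and after 4 Gy x-rays from 1.93 to 3.13 (median 2.70). After 1 Gy x-rays it ran from 1.63 to 3.09 (median 2.25). Cd3e minus the mean of Cd3d and Cd3g ran from 1.29 to 1.83 after 1 Gy neutrons and from -0.23 to 0.42 in the controls. It was also above every control in the 5 mice given 1 Gy x-rays, from 0.43 to 0.94, and ran from 0.31 to 0.79 after 0.25 Gy neutrons and from 0.09 to 0.27 after 4 Gy x-rays. On day 1 neither parting was seen, with Cd8b1 minus Cd8a between 0.80 and 2.05 after 1 Gy neutrons and between 1.11 and 1.93 in the controls, and Cd3e minus the mean of Cd3d and Cd3g between -0.22 and 0.16 and between -0.09 and 0.51. Over the 72 arrays the mean of 13 erythroid genes correlated with Cd8b1 at r = 0.71 and with Cd8a at r = 0.16. Of those genes, 10 rose on day 7 after 1 Gy neutrons, with 38.4% of all genes called and Ahsp up by 2.98 ± 0.29. Whether red cell precursors have a part in the Cd8b1 signal was not tested.

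**Figure D3:**
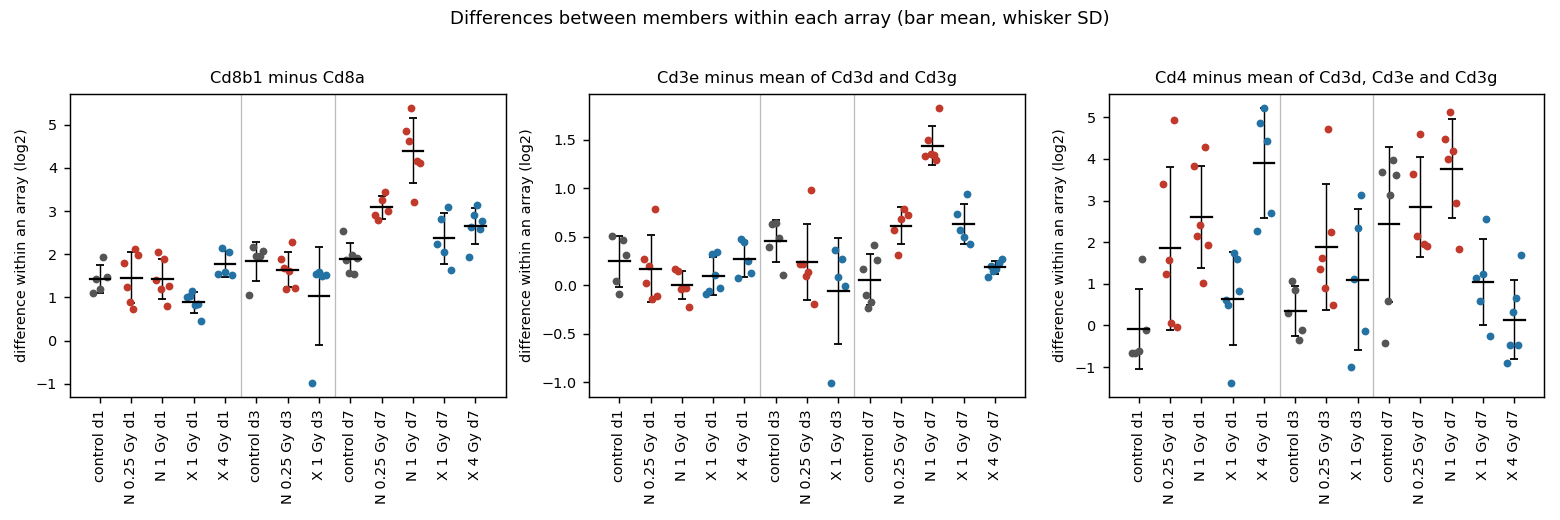
Differences between members within each array (vertical axes, log2), 1 point per mouse, by group on the horizontal axes, with bars at the mean and whiskers of 1 SD: Cd8b1 minus Cd8a, Cd3e minus the mean of Cd3d and Cd3g, and Cd4 minus the mean of the CD3 chains. On day 7 all 6 mice given 1 Gy neutrons lie above all controls in both the left and the middle panel, from 3.22 to 5.39 and from 1.29 to 1.83.

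The scaling mattered on day 7. Spike-in controls were 3.35 to 5.06 log2 units above the array median after 1 Gy neutrons and 1.20 to 2.68 above it in the controls. Centred on the spike-ins, the median of all genes fell by 1.79, Cd8a by 3.53, Cd3d and Cd3g by 3.00 each and Lck by 2.64, and 7 members were called lower. The sign of Cd3e and Cd8b1 turned on that scale, to -1.62 and -1.03, both above the shift of all genes. Cd8b1 minus Cd8a within an array is the same whatever value the array is centred on. Background correction or quantile normalization can change it, and it was not computed under these. Cd3e was also below 0 with normexp background correction (-0.73) and with dim spots set to missing (-0.05), and Cd8b1 with normexp (-0.27). The 1 neutron array that shared a scan date with the 6 controls differed from their mean by -0.88 for Cd8a, -0.78 for Cd3d, 0.45 for Cd3e and 2.08 for Cd8b1. With scan date as a block no member was called, and 1 was called without control replicate 4 or without neutron replicate 2.

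On day 7 after 4 Gy x-rays, 1 member was lower and 1 higher, with 17.6% of all genes called. Cd8a ran from -0.76 to 0.24 (median -0.30), below all controls of that day, with a difference of -1.29 ± 0.24 (limma FDR 0.00116). Zap70, the kinase that docks on the ITAMs, ran from 3.66 to 4.31 (median 3.83) against 2.83 to 3.33 (median 3.14) in the controls. All irradiated mice were above all controls, at 0.81 ± 0.16 (limma FDR 0.00207).

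The CD3 chains were near the control level on day 7 after 4 Gy x-rays, at -0.01 ± 0.19 for Cd3d, 0.21 ± 0.17 for Cd3e and 0.18 ± 0.26 for Cd3g. Cd8b1 was at -0.53 ± 0.22 (limma FDR 0.0685) and Cd4 at -2.17 ± 0.63 (limma FDR 0.0162), and neither was called. The controls of day 7 were all scanned on one date and the 4 Gy mice all on another, so that scan date and exposure cannot be told apart here. The hepatocyte mean ran from -1.82 to 0.62 in these controls and from -1.17 to 7.99 in the irradiated mice. Centred on the spike-ins, the difference of Cd8a was -1.07 and that of Zap70 1.03, and neither was called.

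Neutrons and x-rays were then compared directly at the same physical dose of 1 Gy. The paper set its doses from the biological effectiveness of its neutrons relative to x-rays in a micronucleus assay. By that measure an equal physical dose is not an equal effect. On day 1, 6 members were lower after neutrons, with 9.05% of all genes called. The differences were -1.97 ± 0.22 for Cd8a, -1.42 ± 0.31 for Cd8b1, -1.40 ± 0.24 for Cd3e, -1.31 ± 0.22 for Cd3d, -1.30 ± 0.22 for Cd3g and -1.16 ± 0.26 for Lck. For these genes other than Cd8b1, all 6 neutron mice were below all 6 x-ray mice, as they were for Zap70 (-0.69 ± 0.21, not called). On the 1 scan date that held 2 neutron and 4 x-ray arrays the differences were -1.66 for Cd8a and -0.96 for Cd3d. With scan date as a block, and separately on the spike-in scale, no member was called.

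On day 7 the same comparison called 1 member lower, Cd3d at -0.82 ± 0.19 (limma FDR 0.00425), with 23% of all genes called. Cd3g, Cd8a, Lck and Zap70 were also lower in every neutron mouse than in every x-ray mouse, at -0.87 ± 0.21, -1.38 ± 0.37, -0.62 ± 0.23 and -0.59 ± 0.17, without a call. The share of all genes apart in this way was not counted. Cd4 was at 2.13 ± 0.51 (limma FDR 0.00487). When each of the 11 mice was left out in turn, Cd3d was called 0 times, and 8 of these fits called no member.

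Against 4 Gy x-rays, 1 Gy neutrons gave no called member on day 1 in limma or with the random variance test, with 0.0552% of all genes called and 3 members, beside 2004 of 10863 genes, at an unadjusted p under 0.05. Cd8a was higher in all 6 neutron mice than in all 5 x-ray mice, at 1.63 ± 0.31 (limma FDR 0.141, 95% interval 0.93 to 2.34). Cd8b1 was at 1.30 ± 0.37 (interval 0.46 to 2.13) and Cd3d at 0.87 ± 0.34 (interval 0.10 to 1.64).

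On day 7 the exposures parted, with 4 members lower and 2 higher after 1 Gy neutrons than after 4 Gy x-rays and 41.9% of all genes called. Lower were Zap70 (-1.12 ± 0.17), Cd3g (-1.08 ± 0.20), Lat (-0.98 ± 0.16) and Cd3d (-0.89 ± 0.16), each with no overlap. Higher were Cd4 (3.06 ± 0.45, no overlap) and Cd8b1 (1.61 ± 0.33), and on the spike-in scale the sign of Cd8b1 turned, to -0.72. Cd8a gave -0.13 ± 0.21, with an interval from -0.61 to 0.34. Only 1 scan date held arrays of both groups, 1 after neutrons and 6 after x-rays, and the difference within it was -1.33 for Zap70, -1.20 for Cd3g, -0.87 for Lat, -0.85 for Cd3d, 1.22 for Cd4 and 1.10 for Cd8b1. With scan date as a block no member was called.

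Within x-rays, 7 members were lower on day 1 after 4 Gy than after 1 Gy, with 17.6% of all genes called. They were Cd8a (-3.60 ± 0.27), Cd8b1 (-2.72 ± 0.28), Cd3d (-2.18 ± 0.30), Cd3g (-2.03 ± 0.32), Cd3e (-1.93 ± 0.28), Lck (-1.74 ± 0.33) and Zap70 (-1.07 ± 0.24), all without overlap. The single 4 Gy array that shared a scan date with 1 Gy arrays, 4 of them, gave -2.91 for Cd8a and -1.11 for Cd3d, and with scan date as a block 1 member was called. On day 7 no member was called in limma or with the random variance test, with 9.54% of all genes called and 4 members, beside 4507 of 10863 genes, at an unadjusted p under 0.05. The differences on day 7 were -1.24 ± 0.38 for Cd8a, -0.96 ± 0.27 for Cd8b1, -0.92 ± 0.41 for Cd4 and 0.53 ± 0.17 for Zap70.

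Within neutrons, 1 Gy against 0.25 Gy gave no called member on day 1 in limma or with the random variance test, with 1.35% of all genes called and 2 members, Cd8a and Cd8b1, at an unadjusted p under 0.05 (-1.44 ± 0.44 and -1.47 ± 0.40), beside 2785 of 10863 genes. One 0.25 Gy mouse, replicate 5, was low for most members, with Cd8a at -1.39 and Cd3d at 1.49, and without it Cd8a and Cd8b1 were called. On day 7, 2 members were lower, Cd3g (-0.72 ± 0.16, no overlap) and Cd8a (-0.81 ± 0.19), with 31.1% of all genes called. The 1 array after 1 Gy that shared a scan date with 0.25 Gy arrays, 5 of them, gave -0.68 for Cd3g and -0.27 for Cd8a. Neither was called with scan date as a block, and each of the 11 fits that left out 1 mouse called 0 or 1 member.

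The difference from controls was itself compared between the days, with every day 1 and day 7 mouse of an exposure and its controls in one fit. After 4 Gy x-rays, 6 members changed between the days, with 22.4% of all genes called. Scan date cannot be told apart from exposure in this comparison. The difference rose from day 1 to day 7 by 2.42 ± 0.35 for Cd8b1, 2.00 ± 0.40 for Cd8a, 1.80 ± 0.37 for Cd3d, 1.77 ± 0.32 for Cd3e and 1.36 ± 0.27 for Zap70, and it fell by 4.58 ± 0.81 for Cd4. For Cd8a the difference thus moved from -3.30 to -1.29. For Cd4 it moved from 2.42 to -2.17, across controls whose own Cd4 levels spread widely: 3.00 to 4.55 on day 1, and 7.02, 3.51, 4.10, 6.40, 7.11 and 6.92 on day 7.

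After 1 Gy neutrons, 2 members changed between the days, with 28.7% of all genes called: Cd8b1 by 2.73 ± 0.50 (limma FDR 0.000109) and Cd3e by 1.51 ± 0.29 (limma FDR 0.000207). On the spike-in scale the sign for Cd3e turned, to -0.87. Cd8a gave 0.24 ± 0.34, with an interval from -0.48 to 0.96. No member changed between the days after 0.25 Gy neutrons (1.32% of all genes called) or 1 Gy x-rays (8.68%) in limma or with the random variance test, with 0 and 3 members at an unadjusted p under 0.05, beside 1902 and 3770 of 10863 genes.

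The members fell into a tight set and a few that stood apart. Over the 72 arrays Cd3d correlated with Cd3g at r = 0.91, with Lck at 0.89 and with Cd8a at 0.86. Cd8a correlated with Lck at 0.85 and with Cd3g at 0.78. Cd8a and Cd8b1 correlated at 0.62, Cd4 and Cd3d at -0.49, and Lat and Cd8b1 at -0.41. These are descriptions of arrays that share groups and RNA composition. By the same measure, genes outside the set whose pattern was among the most like the mean of Cd3d, Cd3e and Cd3g were ENSMUST00000103291 (r = 0.93), Fam189b (0.92), Cd6 (0.92) and Thy1 (0.92), among 10850 genes. Cd6 and Thy1 encode surface proteins of T cells.

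**Figure D4:**
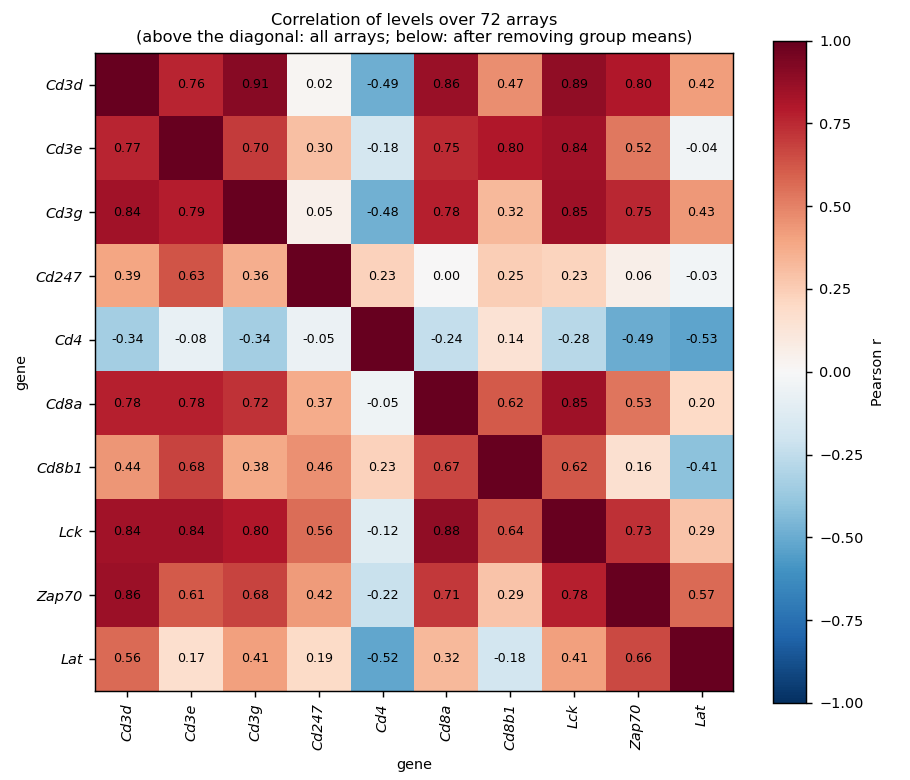
Pearson correlation between the levels of each pair of members over the 72 arrays (above the diagonal) and after the mean of each group was subtracted (below it), on a colour scale from -1 to 1. Cd3d, Cd3g, Cd8a and Lck form a block, with r from 0.78 to 0.91 over all arrays. Cd3e correlated with these genes at 0.70 to 0.84 and Zap70 at 0.53 to 0.80, whereas Cd4 and Cd247 stand outside the block.

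Cd247, which encodes the zeta chain, has a long tail with several ITAMs. Its brighter probe followed the other chains least. That probe ran from -3.59 to -2.68 in the day 1 controls and from -3.49 to -1.41 after 4 Gy x-rays, was well above background in most but not all spots, and was called in none of the comparisons. Its r with the mean of the 3 CD3 chains was 0.13. The dimmer probe, whose coding sequence is printed above, had r = 0.69, and the pair correlated with each other at 0.20. In a fit with the other detected probes as rows of their own, which was added after the data had been seen and tested 10866 rows, the dimmer Cd247 probe was at -1.50 ± 0.41 after 4 Gy x-rays on day 1 (limma FDR 0.00721) and at -1.02 ± 0.34 after 1 Gy neutrons (limma FDR 0.0268), not called in either.

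The other genes with more than 1 detected probe gave like results from each. The second Cd8a probe correlated with the one used at 0.94 and was called lower in the same 4 comparisons with controls, at -2.90 for 4 Gy x-rays and -1.73 for 1 Gy neutrons on day 1, and at -1.42 and -1.09 on day 7. The second Zap70 probe correlated with the one used at 0.92 and rose after 4 Gy x-rays on day 7 by 0.92 ± 0.15.

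The Cd4 probe stood apart from the T cell genes throughout. Its r was -0.42 with the mean of the CD3 chains, -0.37 with Cd5, -0.49 with Cd6, -0.30 with Cd28 and -0.32 with Cd2, genes that T cells express. A second Cd4 probe, at chr6:124817706-124817765 on mm9, was not detected, with 89.8% of its spots marked as outliers or dim on the days 1 and 7 arrays. The Cd4 values therefore rest on a single probe that did not follow the T cell genes, and whether they report Cd4 mRNA of T cells was not tested.

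Partners of the receptor in signalling were described from a list of 50 genes, of which 49 were on the array, 46 were detected and 34 were tested. The list was not limited to genes of T cells alone. B cell genes fell in the same comparisons, as given further on, and the part of B cells in the partners' values was not tested. After 4 Gy x-rays on day 1, 18 fell and none rose, with a median of -1.32 against 0.0045 over all genes. In that comparison 35.1% of all genes were called. Slamf6, a costimulatory receptor of lymphocytes, fell by 2.55 ± 0.30. After 1 Gy neutrons on day 1, 13 fell and none rose, with a median of -0.91 and 17.5% of all genes called. Malt1, which acts in signalling to NF-kappaB, fell by 1.52 ± 0.22.

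On day 7 after 1 Gy neutrons, 12 signalling partners were lower and 1 was higher, with a median of -0.54 against 0.31 over all genes. Of all genes 38.4% were called, 1443 lower and 2723 higher. The number of partners called was thus near the share of all genes. The kinase gene Tec was at -1.49 ± 0.17, while the adaptor gene Fyb was at 0.90 ± 0.21. On day 7 after 4 Gy x-rays 2 were lower and 1 higher, with a median of -0.03, namely Tec (-1.17 ± 0.17), Bcl10 (-0.77 ± 0.18) and Prkcq (0.77 ± 0.18). Here 17.6% of all genes were called, a larger share than among the partners. None was called after 1 Gy x-rays or 0.25 Gy neutrons on any day in limma, with between 5 and 12 and between 1 and 8 genes at an unadjusted p under 0.05. Of 14 listed constant and variable region transcripts of the receptor, 3 were on the array and 1 was tested, Tcrb-J, which fell by 1.66 ± 0.31 after 4 Gy x-rays on day 1.

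Other lymphocytes give the setting of these values. All 11 tested B cell genes fell after 4 Gy x-rays on day 1 (median -4.30) and day 7 (median -2.95) and after 1 Gy neutrons on day 1 (median -2.74), and 9 of 11 were lower on day 7 after 1 Gy neutrons. After 1 Gy x-rays 7 of the 11 fell on day 1, where no member of the T cell set did, and 1 and 3 were lower at days 3 and 7. After 0.25 Gy neutrons 4 were lower on day 3. Of 10 natural killer cell genes, which share Cd247, Zap70 and Lat with T cells, none was lower in any comparison with controls, Gzma rose by 1.20 ± 0.26 on day 1 after 1 Gy x-rays, and 4 rose on day 7 after 4 Gy x-rays, led by Klrb1c (1.32 ± 0.22) and Klrk1 (1.13 ± 0.20). This is the comparison in which Zap70 rose, and the part of natural killer cells in it was not tested.

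The remaining cell lists were myeloid, platelet and erythroid. Beside their counts stand the shares of all genes called, 35.1% and 17.6% on days 1 and 7 after 4 Gy x-rays. The shares were 38.4% on day 7 after 1 Gy neutrons and 2% on day 3 after 1 Gy x-rays. The monocyte count of day 1 and both neutrophil counts were not far above these shares, and the day 7 platelet count was below its share. Of 9 monocyte genes, 2 fell and 2 rose on day 1 after 4 Gy x-rays, and 4 rose on day 7. Of 8 neutrophil genes, 4 rose on day 7 after 1 Gy neutrons, and 2 rose on that day after 4 Gy x-rays. Of 12 platelet genes, 4 rose on day 3 after 1 Gy x-rays and 1 on day 7 after 1 Gy neutrons. Of 13 erythroid genes, 7 fell and 1 rose on day 1 after 4 Gy x-rays, and 5 rose on day 7.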

How the data were processed

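Blood RNA of 72 mice had been hybridised to Agilent one-colour mouse arrays, and the authors deposited scanner files made with Agilent Feature Extraction 12.0.2, holding processed signal intensity per spot. A deposited table of normalised log2 values, whose columns mostly followed other arrays, served only as an alternative at day 1 after 0.25 Gy neutrons. Processed intensity was taken to log2 and each array centred on its median, as the authors did. Control and outlier spots were left out. On the days 1 and 7 arrays, a kept probe had at most 25% of spots that were dim or outliers, dim meaning not well above background, and it differed by 1.5-fold from its median on at least 20% of arrays. The brightest such probe stood for a gene, which left 10863 genes. Groups came from the sample labels. Nothing in the labels pairs the replicates.

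The 22 comparisons were fitted with limma 3.58.1 in R 4.3.3 (lmFit and eBayes, 2-sided), each on its own groups, with Benjamini-Hochberg adjustment over all genes, and calls needed an unadjusted p under 0.001 and an FDR under 0.05. The fit was tested on simulated data. Named genes were all members, the 2 called genes of each list with the largest fall and rise, and the 5 genes most like the CD3 chains. A few genes that the rule names are not reported here. Where several comparisons named genes of a cell list, a few are printed. The members and gene lists were chosen with earlier results of these data known, so that the lists are descriptions and no independent evidence. Alternatives were the centring (75th percentile, spike-ins, quantile), normexp background correction with an offset of 50, dim spots, the detection and fold filters, the mean over probes, the random variance test, and blocks for scan date, slide and replicate number. The number of arrays limits the precision, and p-values weigh each difference against the spread between the mice within its groups. Where no scan date held arrays of both groups, that spread does not cover a difference between scan dates.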

Additional observations from a re-analysis of the deposited data

Results flagged for a closer look

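Single mice far from the rest of their group were found in 21 of 130 combinations of member and group (16.2%), where chance gives about 1 in 20. In the 0.25 Gy neutron group of day 1, replicate 5 was low for Cd3d (1.49), Cd3e (2.03), Cd3g (0.98), Cd8a (-1.39), Cd8b1 (0.73) and Lck (2.81), and replicate 2 was high for Cd247 (-0.87). In the 1 Gy x-ray group of day 3, replicate 1 was low for Cd3e (2.04), Cd3g (2.55) and Cd8b1 (-0.99) and high for Lat (5.38). In the 1 Gy x-ray group of day 7, replicate 5 was high for Cd3d (4.22), Cd8a (2.59), Lck (6.16) and Lat (2.42). Replicate 3 of the 1 Gy neutron group of day 1 was low for Cd3d (2.04) and Zap70 (2.33), and replicate 4 of the day 1 controls was low for Cd3g (2.39) and Cd8a (0.15). Replicate 1 of the 1 Gy neutron group of day 7 was high for Cd8a (0.12), and replicate 4 of the 0.25 Gy neutron group of day 3 was low for Lck (4.14).

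The difference from controls changed from day 1 to day 7 for 8 pairs of member and exposure. After 4 Gy x-rays the change was 1.80 for Cd3d, 1.77 for Cd3e, -4.58 for Cd4, 2.00 for Cd8a, 2.42 for Cd8b1 and 1.36 for Zap70, and after 1 Gy neutrons it was 1.51 for Cd3e and 2.73 for Cd8b1.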

How the results depend on the processing

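Counts of called members, given here beside the main count, depended on the centring, the filters and the blocks, and the cause was not tested. With spike-in centring there were 2 against 0 for 0.25 Gy neutrons on day 7, 1 against 2 and 7 against 2 for 1 Gy neutrons on days 1 and 7, 0 against 1 for 1 Gy x-rays on day 1 and 0 against 2 for 4 Gy x-rays on day 7. On that scale there were also 0 against 6 and 3 against 1 for 1 Gy neutrons against 1 Gy x-rays on days 1 and 7, 2 against 0 for 1 Gy neutrons against 4 Gy x-rays on day 1, 1 against 0 for 4 Gy against 1 Gy x-rays on day 7, and 6 against 2 for the change between the days after 1 Gy neutrons. The sign turned on it for Cd8b1 between 1 Gy neutrons and 4 Gy x-rays on day 7 (-0.72) and for Cd3e in the change between the days after 1 Gy neutrons (-0.87). With 75th percentile centring there were 4 and 5 for 1 Gy neutrons on days 1 and 7, 0 for 1 Gy x-rays on day 1 and 2 for neutrons against 1 Gy x-rays on day 7, and with quantile normalization 4, 5, 0 and 3. With normexp there were 0 for 1 Gy x-rays on day 1 and 4 Gy x-rays on day 7, 1 and 5 for neutrons against 1 Gy x-rays on days 1 and 7, 0 for 1 Gy against 0.25 Gy neutrons on day 7, and 0 and 1 for the change between the days after 1 Gy neutrons and 4 Gy x-rays. With dim spots set to missing there were 6 for 1 Gy neutrons on day 7, 6 for neutrons against 1 Gy x-rays and 5 for 1 Gy against 0.25 Gy neutrons. Without the detection filter there were 0 for 1 Gy x-rays on day 1 and 0 for both of the latter. Without the fold filter there were 2 for neutrons against 1 Gy x-rays on day 7, and with the mean over probes 1 for 1 Gy against 0.25 Gy neutrons on day 7.

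With scan date as a block there were 1 and 0 for 1 Gy neutrons on days 1 and 7, 0 for neutrons against 1 Gy x-rays on days 1 and 7, 0 against 6 for neutrons against 4 Gy x-rays on day 7, 1 against 7 for 4 Gy against 1 Gy x-rays on day 1, 0 for 1 Gy against 0.25 Gy neutrons on day 7 and 1 for the change between the days after 1 Gy neutrons. As a random block it gave 0 for 1 Gy x-rays on day 1. Slide as a random block, added after the data had been seen, gave 4 and 1 for 1 Gy neutrons on days 1 and 7, 0 for 1 Gy x-rays on day 1, 0 for neutrons against 1 Gy x-rays on day 7, 3 against 0 for neutrons against 4 Gy x-rays on day 1, and 2 and 0 for 1 Gy against 0.25 Gy neutrons on days 1 and 7. In no comparison did every pair of mice with the same replicate number deviate together at r over 0.1 (r from -0.62 to 0.64), so they were taken to share only a number, although every pair was above 0 for 1 Gy against 0.25 Gy neutrons on day 1 (0.04 to 0.51) and for 1 Gy x-rays on day 7 (0.06 to 0.42). With the replicate block there were 1 and 1 for 1 Gy neutrons on days 1 and 7, 0 for 1 Gy x-rays on day 1, 1 for 4 Gy x-rays on day 7, 3 against 6 for neutrons against 1 Gy x-rays on day 1, and 1 and 0 for 1 Gy against 0.25 Gy neutrons on days 1 and 7. After 4 Gy x-rays on day 1 the count ran from 4 to 7 over the 12 alternatives, with Cd4 lost under normexp. The random variance test gave the main count in 21 of 22 comparisons, and 3 against 2 for 1 Gy neutrons on day 7.

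Leaving out 1 mouse at a time gave 1 to 3 members for 1 Gy neutrons on day 7 (1 without control replicate 4 or neutron replicate 2), 0 to 1 for 1 Gy x-rays on day 1 (0 in 8 of 11 fits), 0 to 2 for neutrons against 1 Gy x-rays on day 7 (0 in 8 of 11 fits), 0 to 2 and 0 to 1 for 1 Gy against 0.25 Gy neutrons on days 1 and 7, and 0 to 1 for the change between the days after 1 Gy x-rays (1, Lat, without day 7 replicate 5). The other 16 counts stayed within 1.5 times the main count. The probe used for Cd247 was dim, and whether its low signal hid smaller differences was not tested.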

Other observations

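Genes whose levels were among the most like the Cd4 probe over the arrays, chosen after their values had been seen, were the unnamed probe A_55_P1981992 (r = 0.93), Bcs1l (0.92), C130074G19Rik (0.91) and Krtap5-5 (0.91), among 10850 genes compared. No gene of the T cell receptor complex was among them.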
